A study of Rattus norvegicus with 9 samples.

Results

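Homeobox and T-box genes encode transcription factors that bind DNA through a homeodomain or a T-box domain. The genes described here were chosen by symbol: Hox genes of the clusters a to d, Pbx, Meis and Irx, Lhx, the sine oculis-related genes, Pitx, Prrx and Pax, Dlx, Msx, Nkx and Emx, and numbered Tbx genes, with Lhx9 left out. On a whole-genome rat array, 88 genes matched among 35351 genes and transcripts told apart by name, of which 24 were Hox genes and 64 belonged to the other families. The match was made on the gene names of the array's design, which can be old, and Pbxip1, whose product binds Pbx proteins, came in by its name without being a homeobox gene.

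Hox genes lie in clusters, and their order along a cluster follows the order in which they are used along the body axis of the embryo. Their proteins bind DNA together with cofactors of the TALE class, Pbx and Meis, while Msx, Dlx, Prrx and the T-box repressors Tbx2 and Tbx3 shape mesenchyme and epithelial buds. In the urogenital ridge of the mouse, Emx2, Lhx1, Lhx2, Six4, Pax2 and Pax8 take part in building the gonad or the genital ducts, and posterior Hox genes mark successive segments of the male duct.

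Sertoli cells, the somatic cells that line the seminiferous tubule and nourish germ cells, were isolated from testes of rats aged 5, 12 and 60 days. All 3 ages were treated alike: the cells spent 4 days in a defined growth factor medium and were then given oFSH (50 ng/ml) with testosterone (1e-07 M) in pulses over 11 h, so that no culture without hormones was measured. Each age had 3 one-colour arrays, 9 in all, and the ages were compared to follow maturation after birth. Whether replicates came from separate animals or cultures is not stated, and the p values measure only the spread between these samples. A replicate number stands for 1 slide with an array of each age, and an age always took the same place on the slide, so place and age cannot be told apart.

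Levels are given as log2 of the processed signal on a scale where each array's 75th percentile is 0, and in the order of replicates 1, 2 and 3. A probe's level depends on its sequence, so levels are compared between ages and not between genes. A difference is the log2 difference of the age means with its standard error from 1 limma model of all 9 arrays, and a gene is called (written as rose or fell) at an adjusted p under 0.05 over the 22452 genes tested. Where no array of the dimmer age was well above background, the difference is given as a bound (at least N-fold), and no size is given where that bound stays under 1. Where only some arrays of the dimmer age were, the size given still depends in part on the floor of the scan. The 75th percentile lay between 148.2 and 437.3 intensity units, 49.1% to 63.0% of probes were well above background, and no spot of a homeobox or T-box gene was saturated. With 3 arrays per age, the precision of every value is limited by that number. On this scale the median of all genes tested moved by -0.09 at 60 against 5 days, by 0.04 at 12 against 5 days and by -0.16 at 60 against 12 days. Scaled to 6 spike-in controls instead, it moved by -0.45, -1.27 and 0.80 in these comparisons, so a direction here is one against the bulk of the genes.

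Of the 88 genes, 43 were measured, that is, had a probe well above background on at least 2 of 3 arrays of some age, and 45 were not. The number of Hox genes above background on at least 2 of 3 arrays was 9 of 24 at 5 days, 8 at 12 days and 4 at 60 days. For the other families it was 22, 25 and 28 of 64 at 5, 12 and 60 days, while the share over all genes by name was 53.4%, 54.2% and 59.4%. In cultures of bulk cells, fewer cells that carry a transcript and less of the transcript per cell cannot be told apart.

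At 60 against 5 days, 4 of the 43 measured genes rose and 19 fell, beside 17.2% of all tested genes that rose and 18.1% that fell. Called in either direction were 53.5% of the measured homeobox and T-box genes and 35.3% of all genes. Among the 4 that rose were Hoxa4 and Irxl1, and among the 19 that fell were 9 Hox genes, Meis2, Meis3, Pbx2, Prrx1, Prrx2, Dlx5, Msx1, Tbx2 and Tbx3. A gene that passed the background filter only through its bright age had to differ, so the 23 genes above background at both ages are given apart: 1 rose and 10 fell, beside 11.6% and 17.2% of all such genes. The median fitted difference was -0.55 over the 43 genes and -3.23 over the 11 Hox genes, or -0.28 and -2.9 with genes below background at their bound. On the spike-in scale limma called 17 falls and none of the rises (1 gene was higher at an unadjusted p under 0.05), and the falls of Hoxc4 and Pbx2 were not called. The count was 14, with 2 rises and 12 falls, when background was corrected with normexp on the 6 arrays of replicates 1 and 3, and 7, all falls, among the 16 genes above background on every array.

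At 12 against 5 days, 5 of the 43 genes rose and 12 fell, beside 6.07% and 6.36% of all tested genes, or 12.4% in either direction. Hoxb9, Msx2 and Tbx15 were among those that rose, and Hoxa4, Hoxa5, Hoxa7, Hoxa9, Hoxb2, Hoxc4, Hoxc8, Hoxd10, Meis2, Dlx5, Tbx2 and Tbx3 fell. Of the 24 genes above background at both ages, 6 fell, beside 5.28% of all such genes, and limma called none higher, beside 4.65% (1 at an unadjusted p under 0.05, and 1 with the replicate number as a block). The median fitted difference was -0.28 over the 43 genes and -2.11 over the 11 Hox genes, or -0.22 and -1.69 with genes below background at their bound. On the spike-in scale limma called 15 falls and 0 rises, with 0 rises also at an unadjusted p under 0.05. The number called depended on single arrays. It was 10 without the 5-day array of replicate 2, 11 without the 12-day array of replicate 1 or of replicate 2, and 10, 5 and 8 without all arrays of replicate 1, 2 or 3. With normexp on the arrays of replicates 1 and 3 it was 1, and among the genes above background on every array it was 5, with 1 rise and 4 falls.

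At 60 against 12 days, 2 of the 43 genes rose and 13 fell, beside 12.3% and 13.0% of all tested genes, or 25.3% in either direction. Hoxa4 and Irxl1 rose, and Hoxb9, Hoxc6, Hoxc10, Hoxd10, Meis2, Meis3, Prrx1, Prrx2, Dlx5, Msx1, Msx2 and Tbx2 were among those that fell. Of the 26 genes above background at both ages, 1 rose and 6 fell, beside 8.35% and 12.2% of all such genes. The median fitted difference over the 43 genes was -0.60, but 0.36 on the spike-in scale, and over the 11 Hox genes it was -1.24, or -0.28 on that scale. With genes below background at their bound it was -0.2 in either set. The number called was 5 on the spike-in scale (2 rises and 3 falls). The falls of Hoxb9, Hoxc6, Hoxc10, Meis2, Meis3, Prrx1, Prrx2, Dlx5 and Msx2 were not called on it, and those of Hoxd10, Msx1 and Tbx2 were. The number was 5 with normexp on the arrays of replicates 1 and 3, 3 among the genes above background on every array and 9 without all arrays of replicate 2. Every gene called in any of the 3 comparisons had the same sign on all 3 slides.

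**Figure D1:**
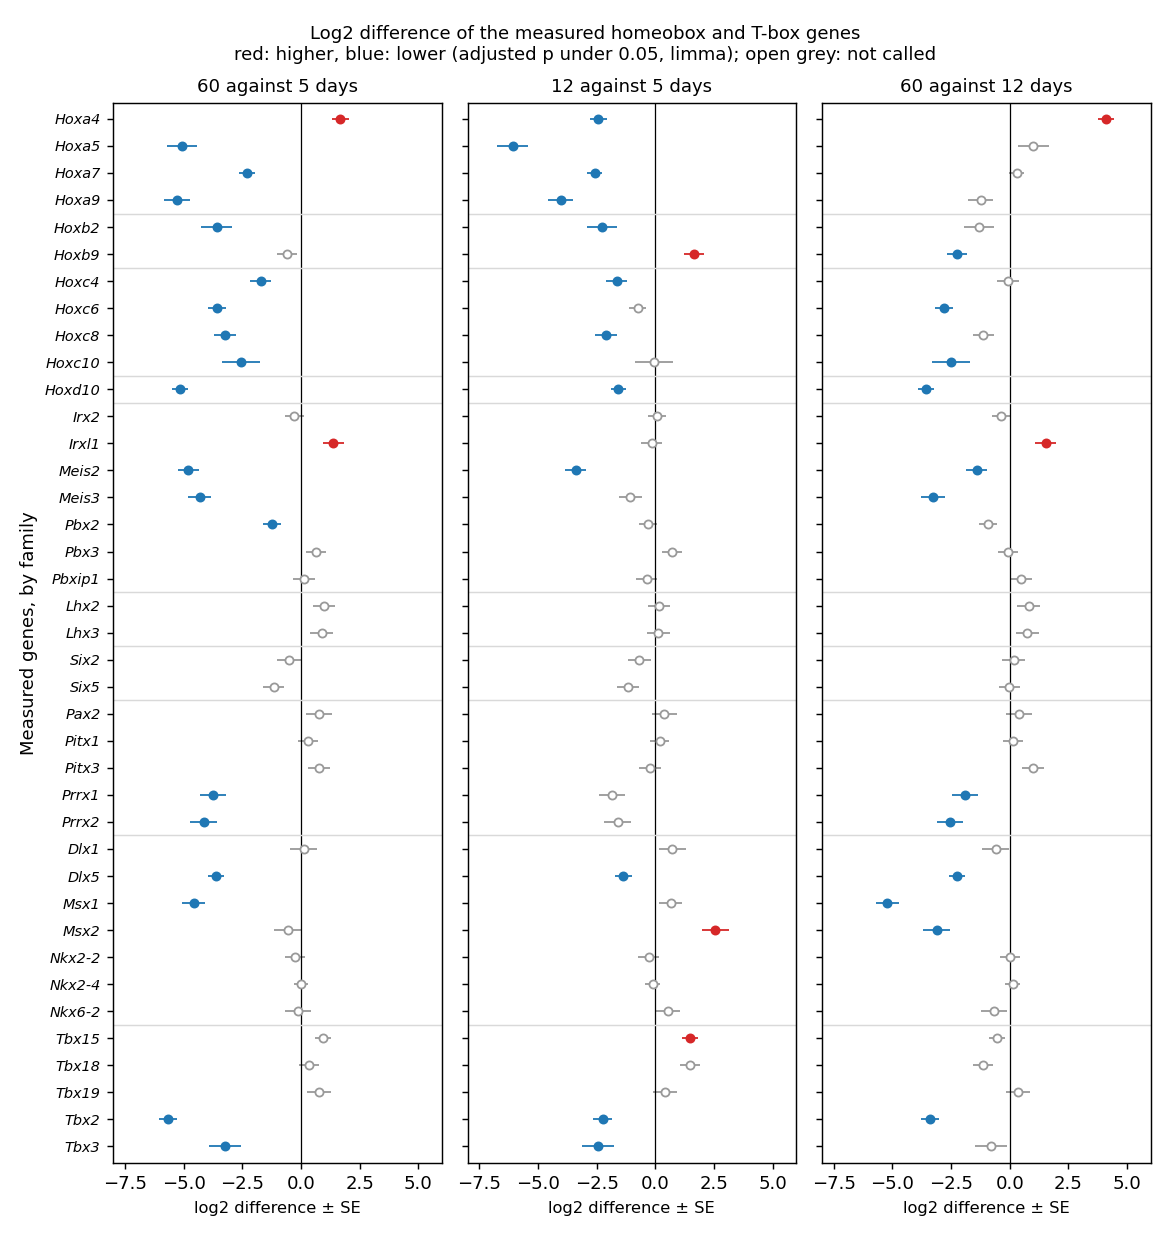
Log2 differences (x axis, with the standard error as bars) of 39 of the 43 measured homeobox and T-box genes, ordered by family down the page, at 60 against 5, 12 against 5 and 60 against 12 days. Red points are genes called higher, blue points genes called lower and open grey points genes not called; for genes below background at one age the plotted difference depends on the floor of the scan. At 60 against 5 days 18 points are blue and 2 are red, and 9 of the 11 Hox genes at the top are blue.

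Markers of other cells moved with age on the same arrays, and their part in the results below was not tested. Of 12 measured markers of peritubular myoid cells and fibroblasts, 9 fell at 60 against 5 days and 6 fell at 12 against 5 days. Their summed signal, in units of the array's 75th percentile, was 564 to 1080 at 5 days, 278 to 416 at 12 days and 41.5 to 228 at 60 days, and Acta2 was not measured. Of 8 measured duct epithelium markers, 5 fell at 60 against 5 days and 6 at 12 against 5 days, with sums of 22.1 to 34.5, 1.89 to 2.02 and 5.06 to 6.83 at 5, 12 and 60 days. Of 7 Leydig cell markers, 1 rose and 4 fell at 60 against 5 days, with sums of 18.7 to 31.9, 5.66 to 9.56 and 11.4 to 15.5, and Lhcgr was not measured. Of 7 macrophage markers 5 fell at 60 against 5 days (sums 5.94 to 10.0, 1.94 to 2.16 and 2.5 to 2.71), and of 4 endothelial markers 1 rose and 3 fell (5.12 to 8.78, 8.46 to 14.8 and 0.929 to 2.6). Germ cell markers rose: all 12 for spermatocytes at 60 against 5 days, with sums of 1.77 to 2.21 at 5 days, 15.3 to 19.4 at 12 days and 95.9 to 182, and 9 of 10 for spermatids, with 0.264 to 0.49, 0.366 to 0.471 and 8.39 to 15.1. Of 5 measured spermatogonial markers 3 rose and 1 fell (sums 8.48 to 11.6, 11.3 to 16.8 and 58.0 to 80.6). Of the 12 Sertoli cell markers 9 rose at 60 against 5 days, and their sums were 42.3 to 47.1, 205 to 229 and 306 to 327.

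**Figure D2:**
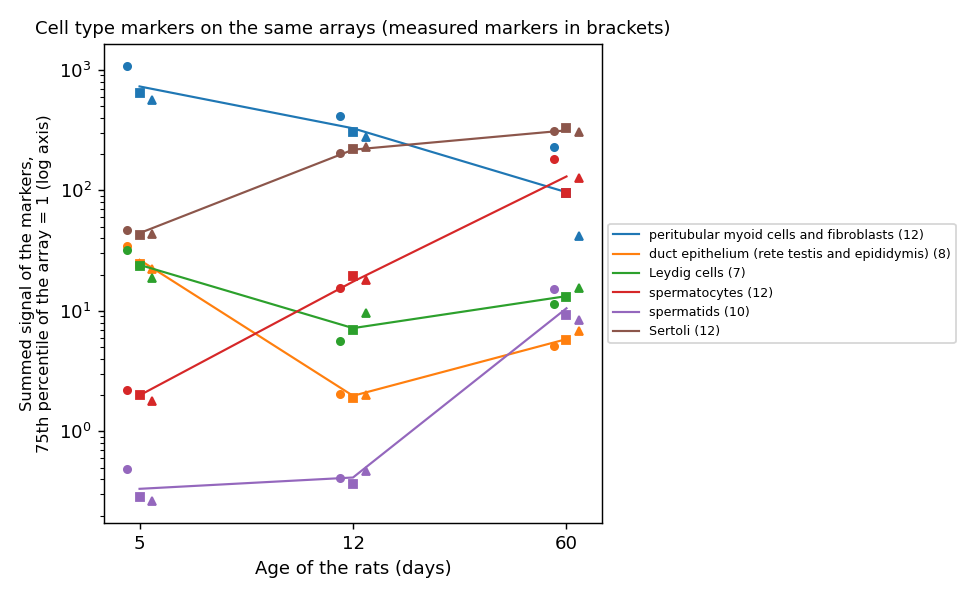
Summed signal of the measured markers of 6 cell types (y axis, log scale, array's 75th percentile = 1) by age of the rats in days (x axis), each point 1 array and each line the geometric mean of 3 arrays. The sum for peritubular myoid cells and fibroblasts is highest on the 5-day arrays (564 to 1080), and those for spermatocytes and spermatids on the 60-day arrays (95.9 to 182 and 8.39 to 15.1).

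Among the Hox genes, all 11 that were measured were called in at least 1 comparison, beside 41.4% of all tested genes. Most had passed the filter through their bright age: 4 of the 11 were above background at both ages at 60 against 5 days (1 rose and 3 fell), 5 at 12 against 5 days (4 fell) and 3 at 60 against 12 days (1 rose and 1 fell). In cluster a, 4 of 6 genes were measured, with probes at chr4:80489587-80489646 (Hoxa4), chr4:80502324-80502383 (Hoxa5), chr4:80517304-80517363 (Hoxa7) and chr4:80523451-80523510 (Hoxa9) in the rn4 build, all on the minus strand. Exons and untranslated regions are not given for any probe, since no rn4 annotation was used here. Hoxa4, an anterior member of the cluster, had levels of -1.0, -1.29 and -1.19 at 5 days, -4.0, -3.25 and -3.51 at 12 days and 0.96, 0.12 and 0.49 at 60 days. The 3 ages did not overlap: all 60-day arrays stood above all 5-day arrays, and all 12-day arrays below both. Of the 12-day arrays 2 were above background, so the sizes against 12 days depend in part on the floor of the scan. Hoxa4 rose by 1.68 ± 0.35 (adjusted p = 0.00294) at 60 against 5 days, fell by 2.43 ± 0.35 (adjusted p = 0.00111) at 12 against 5 days and rose by 4.11 ± 0.35 (adjusted p = 1.78e-05) at 60 against 12 days. No other Hox gene rose in the comparison of 60 against 5 days. Hoxa4 was also the 1 gene of the 23 above background at both ages that rose in that comparison. On the spike-in scale the rise at 60 against 5 days was not called.

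Hoxa5, which patterns the lung and the neck and thorax skeleton in the mouse, had levels of 1.94, 1.93 and 2.61 at 5 days, -4.73, -4.8 and -2.24 at 12 days and -3.22, -3.48 and -2.03 at 60 days. The 5-day arrays stood above all others, and the 12-day and 60-day arrays overlapped. Hoxa5 fell by 6.08 ± 0.66 (adjusted p = 0.000238) at 12 against 5 days and fell by 5.07 ± 0.66 (adjusted p = 0.000133) at 60 against 5 days, and 60 against 12 days gave 1.01 ± 0.66 (adjusted p = 0.303). This probe was above background on 1 of the 12-day arrays, so the size at 12 against 5 days depends on the floor of the scan. A second Hoxa5 probe, above background on all arrays of each age, gave a smaller difference, -2.29 at 60 against 5 days and -2.65 at 12 against 5 days. Hoxa7, a thoracic member, had levels of -2.62, -1.91 and -2.48 at 5 days, -4.72, -4.8 and -5.26 at 12 days and -4.75, -4.5 and -4.67 at 60 days. This probe was above background on all 5-day arrays, on none at 12 days and on 1 at 60 days. It was at least 3.23-fold lower (adjusted p = 0.000533) at 12 than at 5 days and fell by 2.3 ± 0.33 (adjusted p = 0.000243) at 60 against 5 days. Hoxa9, a posterior member also used in blood stem cells, had levels of -0.52, -1.68 and -1.04 at 5 days, -5.66, -4.65 and -5.04 at 12 days and -7.0, -6.93 and -5.14 at 60 days. Only 5-day arrays were above background, and all 3 stood above the other 6. The bounds were at least 7.74-fold lower (adjusted p = 0.000754) at 12 than at 5 days and at least 11.7-fold lower (adjusted p = 2.4e-05) at 60 than at 5 days. A second Hoxa9 probe was above background on 2 of the 5-day arrays and on none later.

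Hoxa11, which the array names by another label and which the symbol rule therefore did not take, had levels of -2.25, -2.23 and -3.19 at 5 days, -6.32, -5.49 and -5.59 at 12 days and -6.77, -6.84 and -6.34 at 60 days. Its product patterns the vas deferens and the descent of the testis in the mouse. This probe was above background on 5-day arrays only. It was at least 4.18-fold lower (adjusted p = 1.41e-05) at 60 than at 5 days and at least 2.78-fold lower (adjusted p = 0.000386) at 12 than at 5 days. A second Hoxa11 probe was above background on 1 array at 5 days and 1 at 12 days, with mean levels of -4.57, -4.84 and -6.35 at 5, 12 and 60 days, so the 5-day and 12-day means lay closer than by the first. Hoxa2, also in cluster a, stayed below background on all 9 arrays.

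The promoters of 59 of the 88 genes were found in RefSeq's sequences of the GRCr8 build, 12 of them of Hox genes. Shown are those of Hoxa4, the Hox gene that was higher at 60 than at 5 days, of Hoxa7 and Hoxa9 from the same cluster, which were lower, and of Hoxd10, the fall with the lowest p among Hox genes. Each runs 5′ to 3′ on the gene's own strand from 250 bases before the start of the gene to 50 bases after it, and capitals mark the letters CACGTG, which read the same on both strands. They lie at chr4:82622253-82622552 (Hoxa4, minus strand), chr4:82648192-82648491 (Hoxa7, minus strand), chr4:82656999-82657298 (Hoxa9, minus strand), chr3:80001697-80001996 (Hoxd10, plus strand).
Hoxa4: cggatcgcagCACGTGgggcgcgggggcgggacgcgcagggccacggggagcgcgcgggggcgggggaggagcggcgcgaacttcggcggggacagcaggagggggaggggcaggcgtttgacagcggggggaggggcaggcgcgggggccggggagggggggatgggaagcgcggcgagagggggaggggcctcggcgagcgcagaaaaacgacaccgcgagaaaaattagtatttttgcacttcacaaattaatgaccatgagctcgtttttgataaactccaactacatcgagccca
Hoxa7: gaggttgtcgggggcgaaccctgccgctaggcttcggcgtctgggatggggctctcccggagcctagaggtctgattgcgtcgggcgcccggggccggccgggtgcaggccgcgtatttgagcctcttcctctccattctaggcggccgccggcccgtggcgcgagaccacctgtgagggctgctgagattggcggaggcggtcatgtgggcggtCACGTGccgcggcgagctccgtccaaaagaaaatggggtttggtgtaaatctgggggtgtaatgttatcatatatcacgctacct
Hoxa9: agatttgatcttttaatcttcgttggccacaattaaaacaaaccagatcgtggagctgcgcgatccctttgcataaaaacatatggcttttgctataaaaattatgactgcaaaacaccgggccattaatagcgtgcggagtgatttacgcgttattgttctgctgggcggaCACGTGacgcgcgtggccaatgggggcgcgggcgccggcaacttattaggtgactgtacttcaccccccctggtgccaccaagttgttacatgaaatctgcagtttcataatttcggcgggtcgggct
Hoxd10: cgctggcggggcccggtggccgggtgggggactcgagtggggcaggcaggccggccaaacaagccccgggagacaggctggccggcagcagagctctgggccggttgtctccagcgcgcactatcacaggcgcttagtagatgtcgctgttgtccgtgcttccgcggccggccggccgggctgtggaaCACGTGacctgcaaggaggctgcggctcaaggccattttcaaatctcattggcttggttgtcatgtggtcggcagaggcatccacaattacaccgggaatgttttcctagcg

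Each of the 4 sequences held CACGTG at 1 place, beginning 240, 35, 78 and 62 bases before the start in the order shown. This motif was chosen after the sequences were seen, so its share among Hox promoters is no test of it. It was present in 6 of the 12 Hox promoters, the 4 shown among them. The share was 8 of the 59 promoters found (13.6%) and 6.42% of all 33469 promoters of the same length, which were not matched for CpG content. Hoxa4, which rose, and the 3 genes that fell held it alike. The 4 sequences held 34, 29, 21 and 24 CpG dinucleotides, beside a median of 19 over the 59 promoters and 7 over all promoters. Searched on both strands, the homeodomain letters TAATTA were in 0 of the 12 Hox promoters and 5.36% of all promoters, and TATAAA was in 2 of the 12 and 14.2% of all. The letters TGATNNAT (N being any base) were in 3 of the 12 and 9.1% of all, and CCAAT in 8 of the 12 and 37.5%. GGGCGG was in 6 of the 12 and 33.1% of all, and AGGTGT in 0 of the 12 and 13.6%.

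In cluster b, 2 of 6 genes were measured, with probes at chr10:85086736-85086795 (Hoxb2) and chr10:85005450-85005509 (Hoxb9). Hoxb2, a gene of hindbrain segments, had levels of -1.57, -0.95 and -2.86 at 5 days, -3.75, -3.24 and -5.23 at 12 days and -4.35, -5.86 and -5.95 at 60 days. It was above background on all 5-day arrays, on 2 at 12 days and on 1 at 60 days. Its 5-day arrays stood above all others, and those at 12 and 60 days overlapped. Hoxb2 fell by 3.59 ± 0.65 (adjusted p = 0.00133) at 60 against 5 days and fell by 2.28 ± 0.65 (adjusted p = 0.0448) at 12 against 5 days, and with the replicate number as a block also at 60 against 12 days (adjusted p = 0.0451, against 0.175 without it). The call of Hoxb2 at 12 against 5 days was lost without replicate 1 at 5 or 12 days, replicate 2 at 5 or 60 days or replicate 3 at 12 days (highest adjusted p 0.159). Hoxb9, which patterns the ribs, had levels of -5.58, -6.32 and -6.28 at 5 days, -3.89, -4.12 and -5.26 at 12 days and -6.35, -7.08 and -6.54 at 60 days. Only 2 arrays, both at 12 days, were above background, and it was the 1 Hox gene to rise at 12 against 5 days (adjusted p = 0.0292, no size given). At 60 days it was at least 1.15-fold lower (adjusted p = 0.00294) than at 12 days. The call of Hoxb9 at 12 against 5 days was lost without replicate 1 at 12 days, replicate 2 at 5 or 12 days or replicate 3 at 5 days (highest adjusted p 0.119).

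In cluster c, whose genes act in the thorax, spinal cord and hindlimb region, 4 of 6 were measured, with probes at chr7:141798352-141798411 (Hoxc4), chr7:141747571-141747630 (Hoxc6), chr7:141754654-141754713 (Hoxc8) and chr7:141734333-141734392 (Hoxc10). Hoxc6 had levels of 0.49, 1.01 and 0.77 at 5 days, 0.46, -0.24 and -0.23 at 12 days and -2.24, -2.82 and -3.38 at 60 days. All 9 values were above background, and the 60-day arrays stood below the 6 others. Hoxc6 fell by 3.57 ± 0.38 (adjusted p = 3.31e-05) at 60 against 5 days and fell by 2.81 ± 0.38 (adjusted p = 0.000339) at 60 against 12 days, while 12 against 5 days gave -0.76 ± 0.38 (adjusted p = 0.263). A second Hoxc6 probe, above background on few arrays, gave -0.75 at 60 against 5 days, -0.77 at 12 against 5 days and 0.01 at 60 against 12 days. Hoxc8 had levels of -0.5, 0.44 and 0.25 at 5 days, -1.37, -2.25 and -2.53 at 12 days and -2.45, -3.85 and -3.2 at 60 days. Its 5-day arrays stood above all others, and those at 12 and 60 days overlapped. Hoxc8 fell by 3.23 ± 0.46 (adjusted p = 0.000262) at 60 against 5 days and fell by 2.11 ± 0.46 (adjusted p = 0.0125) at 12 against 5 days. The call of Hoxc8 at 12 against 5 days was lost without replicate 2 at 5 days (highest adjusted p 0.0536).

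Hoxc4 and Hoxc10 were close to background. Hoxc4 had levels of -3.81, -4.72 and -3.57 at 5 days, -5.72, -6.47 and -4.85 at 12 days and -5.87, -5.78 and -5.6 at 60 days, above background on 2 of the 5-day arrays only. It was at least 1.5-fold lower (adjusted p = 0.0128) at 60 than at 5 days, and it fell at 12 against 5 days (adjusted p = 0.0382, no size given). The call of Hoxc4 at 12 against 5 days was lost without replicate 1 at 5 or 12 days, replicate 2 at 12 or 60 days or replicate 3 at 5 or 60 days (highest adjusted p 0.121). Hoxc10 had levels of -4.49, -3.98 and -3.26 at 5 days, -3.8, -6.09 and -2.05 at 12 days and -6.07, -6.94 and -6.43 at 60 days. Its 12-day arrays lay far apart, replicate 3 the highest of the 9 values and replicate 2 among the lowest, and no 60-day array was above background. It was at least 1.64-fold lower (adjusted p = 0.0302) at 60 than at 5 days and at least 1.56-fold lower (adjusted p = 0.045) at 60 than at 12 days. The call of Hoxc10 at 60 against 5 days was lost without replicate 2 at 5 or 60 days or replicate 3 at 5 or 60 days (highest adjusted p 0.0978). The call of Hoxc10 at 60 against 12 days was lost without replicate 1 at 5, 12 or 60 days, replicate 2 at 5 or 60 days or replicate 3 at 5, 12 or 60 days (highest adjusted p 0.138).

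In cluster d, 1 of 6 genes was measured, Hoxd10 (chr3:57306472-57306531), which patterns the hindlimb and its motor neurons. Its levels were -2.07, -1.14 and -1.95 at 5 days, -3.11, -3.3 and -3.47 at 12 days and -6.9, -7.06 and -6.66 at 60 days. The 3 ages did not overlap, and each later age stood lower. It was above background on all 5-day arrays, on 2 at 12 days and on none at 60 days. Hoxd10 was at least 7.47-fold lower (adjusted p = 1.76e-06) at 60 than at 5 days and at least 2.51-fold lower (adjusted p = 3.83e-05) at 60 than at 12 days, and it fell by 1.57 ± 0.34 (adjusted p = 0.012) at 12 against 5 days. The call of Hoxd10 at 12 against 5 days was lost without replicate 2 at 5 days (highest adjusted p 0.0597). The other Hox genes of clusters b to d on the array were not measured: Hoxb1, Hoxb3, Hoxb8, Hoxb13, Hoxc5, Hoxc12, Hoxd1, Hoxd3, Hoxd4, Hoxd12 and Hoxd13. None of them was above background on more than 1 of the 9 arrays.

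**Figure D3:**
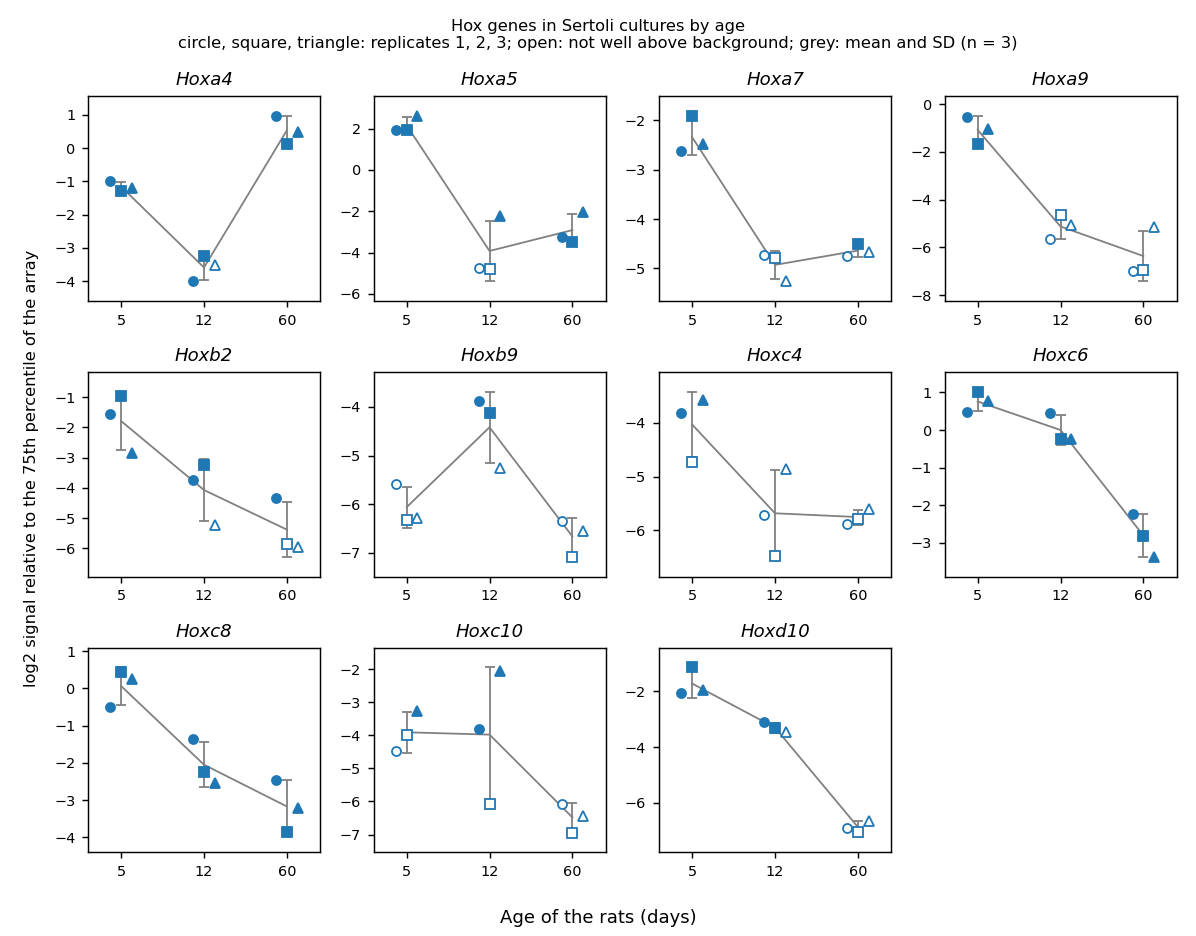
Levels (log2 signal relative to the array's 75th percentile, y axis, 1 scale per gene) of the 11 measured Hox genes by age of the rats in days (x axis). Symbols are the 3 replicates, open where the array was not well above background, and the grey line joins the means with their SD. Hoxa4 is lowest at 12 days and highest at 60 days, Hoxb9 is highest at 12 days, and the others are lower at 60 than at 5 days.

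Of the 10 genes grouped as TALE by symbol, Pbxip1 among them though it is not a homeobox gene, 8 were measured. Of the Hox cofactors, Meis2, Meis3 and Pbx2 fell at 60 against 5 days. Meis2 (chr3:101916822-101916881) had levels of -1.65, -1.63 and -1.46 at 5 days, -5.41, -4.34 and -5.19 at 12 days and -5.48, -7.07 and -6.61 at 60 days. Its 5-day arrays lay far above the other 6. Of the 12-day arrays 1 was above background, and no 60-day array was. Meis2 fell by 3.4 ± 0.45 (adjusted p = 0.000707) at 12 against 5 days and was at least 8.27-fold lower (adjusted p = 1.33e-05) at 60 than at 5 days. It also fell at 60 against 12 days (adjusted p = 0.041, no size given). The call of Meis2 at 60 against 12 days was lost without replicate 1 at 5 days, replicate 2 at 5, 12 or 60 days or replicate 3 at 5, 12 or 60 days (highest adjusted p 0.157). Meis3 (chr1:76522873-76523451) had levels of -0.14, 0.78 and 1.55 at 5 days, -0.19, -0.89 and 0.1 at 12 days and -2.83, -3.87 and -4.07 at 60 days. The 5-day and 12-day arrays overlapped, and the 60-day arrays stood below them. Of the 60-day arrays 2 were above background, so both sizes depend in part on the floor of the scan. Meis3 fell by 4.32 ± 0.5 (adjusted p = 6.1e-05) at 60 against 5 days and fell by 3.26 ± 0.5 (adjusted p = 0.000778) at 60 against 12 days.

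Pbx2 (chr20:4254360-4254419) had levels of 0.12, 1.27 and 1.03 at 5 days, 0.51, 0.7 and 0.3 at 12 days and -0.56, -0.71 and 0.03 at 60 days. Above background on all 9 arrays, it fell by 1.22 ± 0.38 (adjusted p = 0.0286) at 60 against 5 days, where the groups did not overlap. The call of Pbx2 at 60 against 5 days was lost without replicate 1 at 60 days, replicate 2 at 5 or 60 days or replicate 3 at 5 days (highest adjusted p 0.115). Pbx3 was not called, with 0.65 ± 0.42 (adjusted p = 0.258) at 60 against 5 days, and Pbxip1 gave 0.13 ± 0.46 (adjusted p = 0.859).

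Of the Iroquois genes, Irx2 was above background on all 9 arrays and was called in no comparison, and Irx3 and Irx4 were not measured. Irxl1, an Iroquois-like gene (chr17:63700578-63700637), had levels of -6.1, -6.17 and -5.35 at 5 days, -6.41, -6.26 and -5.4 at 12 days and -5.21, -4.45 and -3.8 at 60 days. Only 2 arrays, both at 60 days, were above background. Irxl1 rose at 60 against 5 days (adjusted p = 0.0337) and at 60 against 12 days (adjusted p = 0.0283), with no size given. The call of Irxl1 at 60 against 5 days was lost without replicate 1 at 5 days, replicate 2 at 5 or 60 days or replicate 3 at 60 days (highest adjusted p 0.125). The call of Irxl1 at 60 against 12 days was lost without replicate 1 at 12 days, replicate 2 at 12 or 60 days or replicate 3 at 60 days (highest adjusted p 0.105).

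Of the 12 paired-type genes, 6 were measured. Prrx1 (chr13:78961968-78962027) and Prrx2 (chr3:9936736-9936795) mark mesenchyme of the limbs and face in the mouse embryo. Prrx1 had levels of 2.41, 2.9 and 1.92 at 5 days, 1.7, 0.43 and -0.43 at 12 days and -0.64, -1.5 and -1.91 at 60 days. The 3 ages did not overlap, and on each slide the later age was lower. Prrx1 fell by 3.76 ± 0.55 (adjusted p = 0.000301) at 60 against 5 days and fell by 1.92 ± 0.55 (adjusted p = 0.0259) at 60 against 12 days. At 12 against 5 days it gave -1.84 ± 0.55 (adjusted p = 0.0529), and with the replicate number as a block it was called (adjusted p = 0.00946). The call of Prrx1 at 60 against 12 days was lost without replicate 1 at 12 days, replicate 2 at 12 or 60 days or replicate 3 at 60 days (highest adjusted p 0.0907). Prrx2 had levels of 4.52, 3.89 and 2.7 at 5 days, 2.52, 2.48 and 1.31 at 12 days and 0.27, -1.33 and -0.26 at 60 days. Here too the ages did not overlap and the later age was lower on each slide. Prrx2 fell by 4.14 ± 0.57 (adjusted p = 0.000198) at 60 against 5 days and fell by 2.54 ± 0.57 (adjusted p = 0.00743) at 60 against 12 days, and with the block also at 12 against 5 days (adjusted p = 0.0361, against 0.104 without it). The summed signal of the 12 measured peritubular and fibroblast markers was also lower at each later age. Of these markers 6 were not called at 12 against 5 days and 5 were not called at 60 against 12 days. A link between them and the Prrx genes was not tested.

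Among the Pitx genes, Pitx1 gave 0.31 ± 0.42 (adjusted p = 0.607) at 60 against 5 days and Pitx3 gave 0.76 ± 0.47 (adjusted p = 0.241). Pax2, a gene of kidney and genital ducts, was above background on 1, 1 and 3 arrays at 5, 12 and 60 days and was called in no comparison, with 0.77 ± 0.55 (adjusted p = 0.317) at 60 against 5 days. Pax8 was not above background on any array, and Pax1, Pax3, Pax4, Pax6 and Prrxl1 were not measured either.

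Of the 18 NK-like and Distal-less genes, 8 were measured. Msx1 (chr14:78260990-78261049) and Msx2 (chr17:17248562-17248621) encode repressors at sites where epithelium and mesenchyme meet during development. Msx1 had levels of 1.53, 0.73 and 0.02 at 5 days, 1.22, 1.85 and 1.15 at 12 days and -2.92, -4.25 and -4.23 at 60 days. The 5-day and 12-day arrays overlapped, and all 60-day arrays stood below them. Of the 60-day arrays 2 were above background, so both sizes depend in part on the floor of the scan. Msx1 fell by 4.56 ± 0.49 (adjusted p = 3.43e-05) at 60 against 5 days and fell by 5.21 ± 0.49 (adjusted p = 3.36e-05) at 60 against 12 days. Msx2 had levels of -6.26, -6.32 and -6.07 at 5 days, -2.58, -3.18 and -5.2 at 12 days and -6.91, -7.07 and -6.3 at 60 days. It was above background on 2 of the 12-day arrays and on no other array. Msx2 was at least 1.31-fold higher (adjusted p = 0.0147) at 12 than at 5 days and at least 1.96-fold lower (adjusted p = 0.0025) at 60 than at 12 days. The call of Msx2 at 12 against 5 days was lost without replicate 1 at 5 or 12 days or replicate 2 at 12 days (highest adjusted p 0.0592). A second Msx2 probe was not above background on any array.

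Dlx5 (chr4:31778601-31778660), a gene of skeleton and genital development, had levels of -2.89, -3.09 and -3.45 at 5 days, -4.92, -4.37 and -4.21 at 12 days and -6.89, -7.04 and -6.31 at 60 days. The 3 ages did not overlap, and each later age was lower. Of the 12-day arrays 1 was above background, and no 60-day array was. Dlx5 was at least 2.79-fold lower (adjusted p = 1.72e-05) at 60 than at 5 days and at least 1.09-fold lower (adjusted p = 0.000802) at 60 than at 12 days, and fell by 1.36 ± 0.35 (adjusted p = 0.0274) at 12 against 5 days. The call of Dlx5 at 12 against 5 days was lost without replicate 1 at 5 or 12 days or replicate 2 at 5 or 12 days (highest adjusted p 0.112). Nkx2-4 and Dlx1, which were not called, gave 0.00 ± 0.31 (adjusted p = 0.995) and 0.12 ± 0.57 (adjusted p = 0.894) at 60 against 5 days. For Nkx6-2 the probes disagreed: the brighter one gave -0.14 ± 0.55 (adjusted p = 0.874), and a second one was above background on no 5-day array and on all 60-day arrays.

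Emx2 (chr1:266011069-266011128), without which the mouse forms no gonads or kidneys, carries another label on the array and was likewise outside the symbol rule. Its levels were 2.48, 2.34 and 2.18 at 5 days, -0.69, -0.06 and -0.24 at 12 days and -2.28, -4.32 and -3.13 at 60 days. The 3 ages did not overlap, and each later age was lower on every slide. Emx2 fell by 5.58 ± 0.47 (adjusted p = 7.04e-06) at 60 against 5 days, fell by 2.66 ± 0.47 (adjusted p = 0.00393) at 12 against 5 days and fell by 2.92 ± 0.47 (adjusted p = 0.00104) at 60 against 12 days, and the last of these was not called on the spike-in scale. A second Emx2 probe was above background on 2 of the 5-day arrays and on none later, and its mean levels of -3.45, -4.56 and -5.56 at 5, 12 and 60 days lay closer together.

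Of the 11 T-box genes, 5 were measured. Tbx2 (chr10:74092749-74092808), a repressor known to hold back senescence in cultured cells, had levels of 1.98, 1.77 and 1.51 at 5 days, -0.33, -0.58 and -0.58 at 12 days and -3.7, -3.32 and -4.71 at 60 days. The 3 ages did not overlap. It was above background on 2 of the 60-day arrays, so the sizes against 60 days depend in part on the floor of the scan. Tbx2 fell by 5.67 ± 0.39 (adjusted p = 2.02e-06) at 60 against 5 days, fell by 2.25 ± 0.39 (adjusted p = 0.00328) at 12 against 5 days and fell by 3.41 ± 0.39 (adjusted p = 0.000108) at 60 against 12 days. Its close relative Tbx3 (chr12:38155551-38155610) had levels of 0.49, 1.78 and 0.37 at 5 days, -1.25, -1.29 and -2.16 at 12 days and -1.01, -2.02 and -4.03 at 60 days. The 5-day arrays stood above all others, and the 60-day arrays lay far apart. Tbx3 fell by 3.23 ± 0.69 (adjusted p = 0.00379) at 60 against 5 days and fell by 2.44 ± 0.69 (adjusted p = 0.0429) at 12 against 5 days. The call of Tbx3 at 12 against 5 days was lost without replicate 1 at 5 or 12 days, replicate 2 at 5, 12 or 60 days or replicate 3 at 5 or 12 days (highest adjusted p 0.152).

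Tbx15 (chr2:194067975-194068034), a gene of mesenchyme in skin and skeleton, had levels of -5.45, -5.39 and -6.21 at 5 days, -4.04, -4.37 and -4.22 at 12 days and -4.51, -4.64 and -5.06 at 60 days. It was above background on none of the 5-day arrays and on 2 at each later age. Tbx15 rose at 12 against 5 days (adjusted p = 0.0161, no size given). At 60 against 5 days its adjusted p was 0.0511, and 0.0246 with the replicate number as a block. The call of Tbx15 at 12 against 5 days was lost without replicate 1 at 12 days or replicate 3 at 5 days (highest adjusted p 0.0645). A second Tbx15 probe was above background on 1 array, at 60 days. Tbx18, a gene of urogenital mesenchyme, had levels of -2.83, -3.19 and -2.83 at 5 days, -1.62, -1.49 and -1.36 at 12 days and -1.56, -3.26 and -3.02 at 60 days. Its 12-day arrays stood above all 5-day arrays, with a difference of 1.46 ± 0.43 (adjusted p = 0.0523), and with the block it was called (adjusted p = 0.0301). A second Tbx18 probe was below background on all 9 arrays. Tbx19 was above background on 2 of the 60-day arrays and on no other, and was not called. The other 6 T-box genes, Tbx1, Tbx4, Tbx5, Tbx6, Tbx20 and Tbx21, were not measured.

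**Figure D4:**
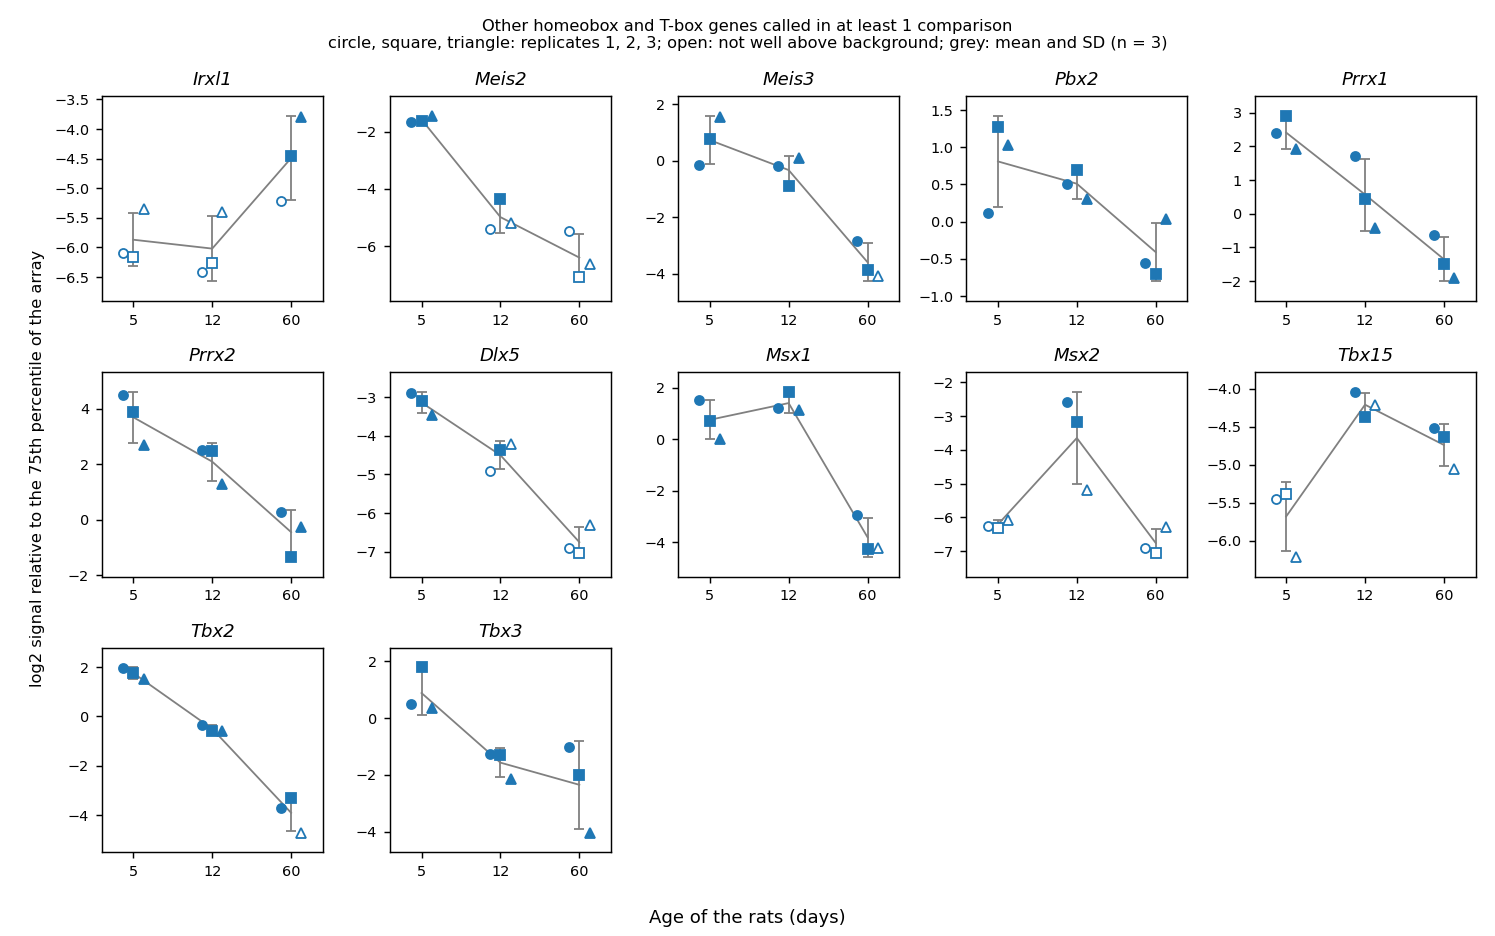
Levels (log2 signal relative to the array's 75th percentile, y axis, 1 scale per gene) of 12 measured genes outside the Hox clusters that were called in at least 1 comparison, by age of the rats in days (x axis). Symbols are the 3 replicates, open where the array was not well above background, and the grey line joins the means with their SD. Prrx1, Prrx2, Dlx5 and Tbx2 are lower at each later age without overlap, Msx1 is lower at 60 days than at both earlier ages, and Msx2 is highest at 12 days.

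Limma called no LIM gene and no sine oculis-related gene in any comparison. At an unadjusted p under 0.05 there was 1 such gene, Six5, lower at 60 against 5 days and at 12 against 5 days. Scaling to the spike-in controls called 1 sine oculis-related gene, lower at 12 against 5 days. Of 7 LIM genes 2 were measured: Lhx2 was above background on 0, 2 and 3 arrays at 5, 12 and 60 days (adjusted p = 0.146 at 60 against 5 days), and Lhx3 gave 0.88 ± 0.49 (adjusted p = 0.192) at 60 against 5 days. Lhx1, Lhx4, Lhx5, Lhx6 and Lhx8 were not measured, Lhx1 being above background on 1 of 9 arrays and Lhx8 on 2. Of the 6 sine oculis-related genes, 3 were measured. Six5 (chr1:78455617-78455676) had levels of 0.85, 0.89 and 1.18 at 5 days, -0.19, -0.52 and 0.13 at 12 days and -1.33, 0.34 and 0.39 at 60 days. All 5-day arrays stood above all others. Six5 gave -1.17 ± 0.46 (adjusted p = 0.0725) at 60 against 5 days, and with the replicate number as a block it was called lower (adjusted p = 0.0376). A second Six5 probe gave -0.54 at 60 against 5 days and -0.81 at 12 against 5 days. Six2 gave -0.51 ± 0.5 (adjusted p = 0.469) at 60 against 5 days. Six4 was not above background on any array, and neither was Six3.

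In all, 17 measured genes were called in no comparison, and their fitted differences lay between -1.17 and 0.98 at 60 against 5 days, between -1.17 and 1.46 at 12 against 5 days and between -1.13 and 0.98 at 60 against 12 days. Of the 45 genes that were not measured, 31 had no probe well above background on any of the 9 arrays. A transcript below background here may still be present at a level the array does not show.

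A list of 95 other homeobox and T-box genes that the symbol rule does not match had 76 on the array and 37 measured. At 60 against 5 days 8 of the 37 rose and 11 fell, beside 17.2% and 18.1% of all tested genes, with a median of -0.56 beside -0.09 over all genes. Among those that fell was Zfhx4, which was at least 16.4-fold lower (adjusted p = 2.98e-06). Among those that rose were Pou3f1, which was at least 2.35-fold higher (adjusted p = 0.00112), Hopx at 2.98 ± 0.45 (adjusted p = 0.000388) and Hmx1 at 2.29 ± 0.43 (adjusted p = 0.00156). At 12 against 5 days 4 rose and 4 fell, beside 6.07% and 6.36% of all tested genes: Alx1 gave -2.81 ± 0.34 (adjusted p = 0.000471) and Pou2f1 gave 2.49 ± 0.48 (adjusted p = 0.00651). At 60 against 12 days 4 rose and 6 fell, beside 12.3% and 13.0%. One that fell was Pou3f3, which was at least 6.17-fold lower (adjusted p = 6.23e-06).

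Of 31 Polycomb genes, whose complexes keep silent Hox genes repressed, 23 were measured. At 60 against 5 days 3 rose and none fell, beside 17.2% and 18.1% of all tested genes: Cbx7 by 1.27 ± 0.45 (adjusted p = 0.0473), Pcgf1 by 1.14 ± 0.35 (adjusted p = 0.0277) and Scmh1 by 1.46 ± 0.42 (adjusted p = 0.0182). With the replicate number as a block, 4 rose and 1 fell in that comparison. At 12 against 5 days limma called none of them, also with the block (1 was higher and 1 lower at an unadjusted p under 0.05), and at 60 against 12 days 2 rose, Cbx7 and Scmh1, or 4 with the block, beside 12.3% of all tested genes. On the spike-in scale none of the 23 was called at 60 against 5 days, also at an unadjusted p under 0.05. Of 13 trithorax and H3K27 demethylase genes 11 were measured, and 1 was called, beside 35.3% of all tested genes at 60 against 5 days. It was Men1, which fell in that comparison with -1.7 ± 0.37 (adjusted p = 0.00392). With the block, 1 rose and 2 fell in that comparison, and on the spike-in scale none was called (1 was lower at an unadjusted p under 0.05). At 12 against 5 days limma called none of the 11, or 1 higher with the block (2 higher and 1 lower at an unadjusted p under 0.05). At 60 against 12 days it called none, or 1 lower with the block (1 lower at an unadjusted p under 0.05). Gmnn, whose product geminin can bind Hox proteins, gave 0.36 ± 0.38 (adjusted p = 0.498) at 60 against 5 days.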

How the data were processed

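Per the labels, total RNA of 9 samples of cultured Sertoli cells, 3 each at 5, 12 and 60 days, was labelled with Cy3. Labelling followed oligo-dT priming, which favours 3′ ends, and the product was hybridised to rat oligonucleotide arrays, per the labels. The processed signal of each spot is an intensity after background subtraction and, for replicates 1 and 3, detrending by Feature Extraction, per the file headers. For replicate 2 the headers do not record whether detrending was on. Replicate 1 was read with another scanner and software version (9.5.3.1 against 10.5.1.1) than replicates 2 and 3. The authors' deposited table holds log2 values equal to the log2 signal minus 1 constant per array, within 0.01 for at least 99.64% of probes.

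From the scans, 254 of 41012 probes failed on some array and were left out, and 26600 were kept that were well above background on at least 2 of 3 arrays of some age. Log2 signals were scaled to the array's 75th percentile. Names came from RefSeq accessions (11165 probes), current symbols (5599), older symbols (3725) or the file (20523), and a gene with several kept probes was read from the brightest. Positions are the probes' rn4 coordinates in the files. A mean per age was fitted with limma 3.58.1 in R 4.3.3 (2-sided tests, Benjamini-Hochberg adjustment over 22452 genes). In simulated data for 60 against 5 days on 22452 genes, 0%, 28.5% and 72% of 200 genes changed by 1, 2 and 3 log2 units were called. Only these 200 genes changed there and spreads were shuffled among genes, whereas 35.3% of genes were called on the real arrays. The shares therefore do not give the sensitivity of the calls above.

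Pearson's r of the deviations from each age's mean was 0.181 to 0.601 for arrays with the same replicate number and 0.094 or less for the rest, so the numbers pair the arrays, as the shared slide does. Genes called in some comparison are named with all 9 values, the others by counts and the brightest of each family; a few genes are counted but not reported here. The genes and lists were chosen with earlier results of these data known. Tables and plots were made with Python 3.11.15, pandas 2.3.3, numpy 2.4.6 and matplotlib 3.10.9.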

Additional observations from a re-analysis of the deposited data

How the results depend on the processing

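The number of measured homeobox and T-box genes called was 23 at 60 against 5 days, 17 at 12 against 5 days and 15 at 60 against 12 days. Leaving out single arrays or all arrays of a replicate gave 19 to 24, 5 to 20 and 9 to 15. Beside the calls named above as lost without single arrays, leaving out all arrays of a replicate ended those of Hoxc4 at 60 against 5 days (replicate 1), of Tbx2 (1 or 2) at 12 against 5 days, and of Hoxb9 (2), Msx2 (1 or 2) and Prrx2 (2) at 60 against 12 days. Normexp background correction gave 14, 1 and 5. It could use only the 6 arrays of replicates 1 and 3 and left out spots with an uneven local background. An offset of 50 intensity units was added, beside a 75th percentile of the processed signal between 148.2 and 325.0 on these arrays. An added constant makes the log2 differences of dim genes smaller. Calls lost with normexp included Hoxa7, Hoxa11, Hoxb2, Hoxc4, Hoxc10, Irxl1, Pbx2 and Dlx5 at 60 against 5 days. At 12 against 5 days they included Hoxa4, Hoxa7, Hoxa9, Hoxa11, Hoxb2, Hoxb9, Hoxc4, Hoxc8, Hoxd10, Meis2, Dlx5, Msx2, Tbx3 and Tbx15. At 60 against 12 days they included Hoxb9, Hoxc10, Hoxd10, Irxl1, Meis2, Prrx1, Prrx2, Dlx5 and Msx2. Requiring a signal above background on all 9 arrays gave 7, 5 and 3 of 16 genes, and scaling to the spike-in controls gave 17, 15 and 5. The replicate block gave 25, 20 and 16, and it changed no call among these genes other than those given above. The deposited log2 values gave 23, 17 and 15. Median scaling, quantile normalization, no filter on dim probes, the mean of all probes of a gene and a fit of only the 6 arrays compared kept each number within 1.5 times. With normexp the difference of Irxl1 at 60 against 12 days became -0.03 (adjusted p = 0.967), over alternatives from 0.00294 to 0.967; the cause was not tested. Signal over background limits what can be said of genes such as Hoxb9, Irxl1 and Msx2, which were well above background on 2 of 9 arrays.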
